A study of Rattus norvegicus with 6 samples.

Results

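The 10 genes described here mark astrocytes, the star-shaped support cells of the central nervous system, and were chosen by their symbols from a list that holds a water channel and glutamate transporters (Aqp4, Slc1a2, Slc1a3), connexins (Gja1, Gjb6), and enzymes and identity genes (Aldh1l1, S100b, Sox9, Glul, Aldoc). All 10 were found among the 33455 genes of the deposited count table and all 10 passed the low-count filter that left 17066 genes. RNA was sequenced from about 5 mm3 of tissue at the centre of a contusion of the rat spinal cord at segment T9. The rats, labelled wild type, were treated with ultrasound and either of a pair of gels, one named as piezoelectric (Piezo Gel+US, 3 libraries) and one not (Gel+US, 3 libraries). Both groups therefore shared the injury and the ultrasound, given at 100 Hz and 1 W/cm2 for 10 min a day over 4 weeks, and the comparison asks what differed when the gel was piezoelectric. Neither group is uninjured, so no level below can be set against intact cord, and strain, sex and age are not given in the labels.

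Astrocytes clear glutamate that neurons release. The transporters encoded by Slc1a2 and Slc1a3 carry it into the cell, and glutamine synthetase, the product of Glul, turns it into glutamine that is returned to neurons. Aqp4 moves water at the endfeet that astrocytes place on blood vessels, and the connexins of Gja1 and Gjb6 form gap junctions that join astrocytes into a network. After injury astrocytes at a lesion border can lose part of this homeostatic programme while raising genes of the reactive state.

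Library totals ran from 17212653 to 21436820 counts, and the smallest count of any of the 10 genes was 307. Counting error was small beside the wider spreads between libraries. For a set as tight as Aldh1l1 in Piezo Gel+US, with 902, 894 and 904 counts, it was not small beside the spread. Levels are CPM, counts per 1000000 of the scaled library total, and fold changes are Piezo Gel+US over Gel+US on the log2 scale. One library, Piezo Gel+US replicate 2, stood apart. The summed level of 11 Schwann cell genes, markers of the glia of peripheral nerve, was 72629 CPM there, against 7663 and 13578 CPM in the other Piezo Gel+US libraries and 4692 to 7821 CPM in Gel+US. Many of the fold changes and list counts that moved with this library are also given without it.

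For none of these 10 genes did the test call a difference between the groups. Of the 10 genes 9 had a fitted log2 fold change below 0, with a median of -0.15, while 52.9% of all genes tested lay below 0, with a median of -0.021. By edgeR's quasi-likelihood test with Benjamini-Hochberg adjustment 0 of the 10 were called at an adjusted p below 0.05, and 0% of all genes tested were. None of the 10 reached an unadjusted p below 0.05 either, a level that 2.10% of all genes reached, and the 95% interval of each of the 10 included 0. This fit had group as its only term. In edgeR with the replicate number as a block, 2 of the 10 and 5.78% of all genes reached that level, and 0 were called. In whole tissue, fewer astrocytes and less RNA per astrocyte cannot be told apart. Without Piezo Gel+US replicate 2 the count turned to 4 genes lower and 6 higher, with a median of 0.15.

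**Figure D1:**
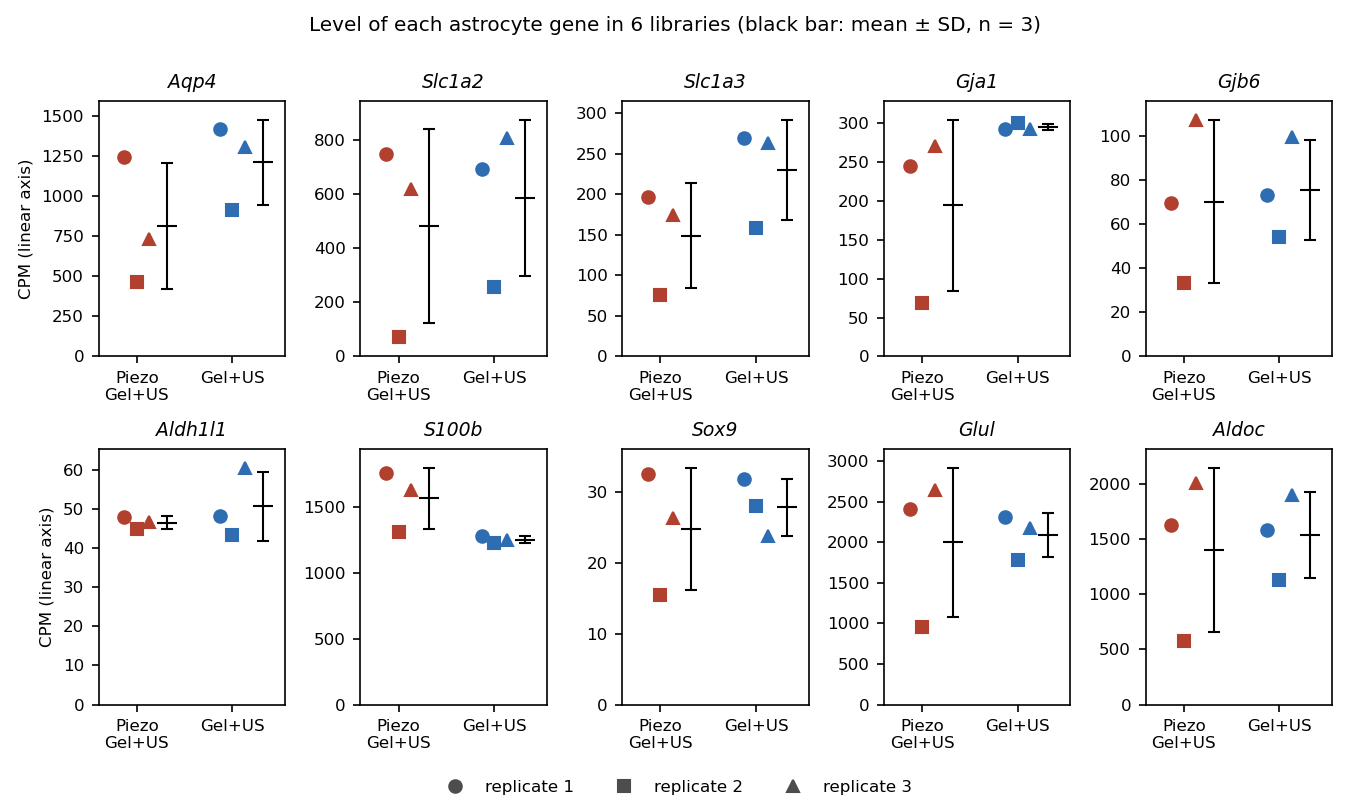
Level of each of the 10 genes in CPM on a linear axis that starts at 0, with Piezo Gel+US in red and Gel+US in blue; symbols mark the replicate number and the black bar the mean ± SD of 3 libraries. Piezo Gel+US replicate 2 (red square) is the lowest point for 8 genes, and only Gja1 and S100b have groups that do not overlap.

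Aqp4 and Slc1a3, like Gja1 and S100b described below, kept the same direction in every fit run. Aqp4, the water channel, measured 1245, 465 and 734 CPM in Piezo Gel+US replicates 1 to 3 and 1419, 915 and 1310 CPM in Gel+US replicates 1 to 3. All 3 Piezo Gel+US libraries lay below Gel+US replicates 1 and 3, but Piezo Gel+US replicate 1 lay above Gel+US replicate 2, so the groups overlapped. The means were 814 ± 396 and 1214 ± 265 CPM (SD, n = 3 each), with a log2 fold change of -0.58 (SE 0.40, 95% interval -1.53 to 0.38, edgeR adjusted p = 0.994). Slc1a3, a glutamate transporter that radial glia also use, measured 196, 75.9 and 175 CPM in Piezo Gel+US and 269, 158 and 263 CPM in Gel+US. Again only Gel+US replicate 2 lay within the range of Piezo Gel+US. Its means were 149 ± 64.3 and 230 ± 62.0 CPM, and its log2 fold change of -0.63 (SE 0.40, 95% interval -1.57 to 0.32, edgeR adjusted p = 0.994) was the furthest from 0 among the 10 genes.

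For Aqp4 and Slc1a3 each Piezo Gel+US library was lower than the Gel+US library of the same number. The Aqp4 differences in log2 CPM were -0.19, -0.98 and -0.84 for numbers 1 to 3, and those of Slc1a3 were -0.45, -1.06 and -0.59. With the replicate number as a block, the log2 fold changes were -0.67 for Aqp4 (95% interval -1.28 to -0.058) and -0.70 for Slc1a3 (95% interval -1.18 to -0.22), each with an edgeR adjusted p of 0.855. Without Piezo Gel+US replicate 2 they were -0.30 (95% interval -1.13 to 0.52) and -0.32 (95% interval -0.99 to 0.36). Aqp4 and Slc1a3 stayed below 0 without that library, and neither was called in any fit.

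Slc1a2, which encodes the main glutamate transporter of mature astrocytes, was the most variable of the 10. It measured 749, 73.3 and 618 CPM in Piezo Gel+US and 691, 258 and 807 CPM in Gel+US. In each group the library numbered 2 was far below the other two, and the highest library held 11.0 times the level of the lowest. The means were 480 ± 358 and 585 ± 289 CPM, with a log2 fold change of -0.29 (SE 0.81, 95% interval -2.23 to 1.66, edgeR adjusted p = 0.994). Without Piezo Gel+US replicate 2 the log2 fold change was 0.22, and without both libraries numbered 2, a choice made after the values were seen, it was -0.13 (95% interval -0.63 to 0.36).

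The transporters also did not keep a fixed ratio to each other. Per base of gene length, Slc1a2 stood at 4.10, 1.04 and 3.81 times Slc1a3 in Piezo Gel+US replicates 1 to 3 and at 2.77, 1.75 and 3.31 times in Gel+US. The ratio is taken within a library and so does not depend on library scaling. Of 6 such ratios between members, this one showed a mean log2 difference of 0.0071 between the groups (exact two-sided permutation p = 1, adjusted p = 1, n = 3 each; the smallest p that 3 against 3 allows is 0.1).

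Promoter windows of the transporters and of S100b are shown because these genes mark the ends of the pattern, Slc1a2 the most variable gene, Slc1a3 the most shifted and S100b the one above 0. RefSeq windows on the GRCr8 build, from 250 bases before to 50 after the listed start, were found for 9 of the 10 genes by symbol, and the first listed window was used. The count table uses other gene IDs than GRCr8 RefSeq, so these windows are matched by symbol alone and may not be the starts its gene models use. They lie at chr3:109459859-109460158 on the plus strand for Slc1a2, chr2:59557759-59558058 on the minus strand for Slc1a3 and chr20:12381032-12381331 on the minus strand for S100b. Each is printed 5′ to 3′ along the gene, with matches to the searched motifs in capitals.
Slc1a2: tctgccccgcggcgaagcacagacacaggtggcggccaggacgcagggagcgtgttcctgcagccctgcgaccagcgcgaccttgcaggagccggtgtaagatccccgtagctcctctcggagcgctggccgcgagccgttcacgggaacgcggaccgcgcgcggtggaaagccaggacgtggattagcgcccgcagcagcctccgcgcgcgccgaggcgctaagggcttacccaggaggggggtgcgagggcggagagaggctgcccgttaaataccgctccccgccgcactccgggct
Slc1a3: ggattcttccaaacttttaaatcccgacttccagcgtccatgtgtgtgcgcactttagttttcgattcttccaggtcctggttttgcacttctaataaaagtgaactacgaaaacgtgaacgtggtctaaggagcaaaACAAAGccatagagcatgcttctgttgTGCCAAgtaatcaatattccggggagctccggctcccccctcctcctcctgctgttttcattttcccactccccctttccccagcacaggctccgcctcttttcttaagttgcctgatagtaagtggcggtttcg
S100b: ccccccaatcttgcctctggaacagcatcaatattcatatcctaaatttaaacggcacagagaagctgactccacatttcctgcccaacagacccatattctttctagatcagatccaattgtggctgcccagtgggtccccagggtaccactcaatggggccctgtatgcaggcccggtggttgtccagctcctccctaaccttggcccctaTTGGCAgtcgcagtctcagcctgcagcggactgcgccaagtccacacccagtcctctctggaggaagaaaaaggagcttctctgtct
The motifs, searched on both strands, were ACAAAG and ACAATG for SOX factors, TTGGCA for the NFI half-site and TTCNNNGAA for STAT factors. Slc1a3 held ACAAAG and, on the other strand, TTGGCA, and S100b held TTGGCA, and the matches do not overlap. No other window of the 9 held any of the motifs. Over 27457 genes with such a window, 18.3% held ACAAAG, 13% ACAATG, 13.6% TTGGCA and 8.68% TTCNNNGAA. The Slc1a2 window had a G and C content of 71.0% and 39 CpG dinucleotides, against 48.3% and 12 in Slc1a3 and 54.0% and 5 in S100b, with a median of 52.3% and 7 over all windows. A match describes letters in the window and shows no binding.

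The connexins differed from each other in pattern. Gja1, the most abundant astrocyte connexin, measured 245, 68.1 and 271 CPM in Piezo Gel+US and 292, 300 and 293 CPM in Gel+US. Its Gel+US libraries were within 1.03-fold of each other, and all 3 Piezo Gel+US libraries lay below them. Groups that do not overlap in this direction were seen for 2.73% of all genes tested. The means were 195 ± 110 and 295 ± 4.35 CPM, with a log2 fold change of -0.60 (SE 0.48, 95% interval -1.74 to 0.54, edgeR adjusted p = 0.994). Without Piezo Gel+US replicate 2 it was -0.20 (95% interval -0.61 to 0.21). The Gja1 differences in log2 CPM between libraries of the same number were -0.26, -2.14 and -0.11. The replicate block gave Gja1 a log2 fold change of -0.81 (95% interval -1.97 to 0.34, edgeR adjusted p = 0.870).

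Gjb6, the second connexin and a marker of mature grey matter astrocytes, measured 69.5, 33.4 and 107 CPM in Piezo Gel+US and 72.8, 53.9 and 99.1 CPM in Gel+US. The groups overlapped, and the highest and the lowest library were both Piezo Gel+US. Its log2 fold change was -0.11 (95% interval -1.14 to 0.93, edgeR adjusted p = 0.994), and 0.22 without Piezo Gel+US replicate 2. Per base of gene length, Gjb6 stood at 0.284, 0.491 and 0.396 of Gja1 in Piezo Gel+US and at 0.249, 0.180 and 0.338 in Gel+US. That ratio was higher in Piezo Gel+US at each replicate number, but the groups overlapped (mean log2 difference 0.62, exact two-sided permutation p = 0.2, adjusted p = 0.6 over the 6 ratios, n = 3 each).

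S100b alone lay above 0. This small calcium-binding protein is made by astrocytes and also by Schwann cells and some oligodendrocytes. It measured 1758, 1308 and 1627 CPM in Piezo Gel+US and 1278, 1227 and 1250 CPM in Gel+US. All 3 Piezo Gel+US libraries were higher than all 3 Gel+US libraries, by a narrow margin for replicate 2, and such a separation was seen for 4.08% of all genes tested. The means were 1564 ± 231 and 1251 ± 25.3 CPM, and the log2 fold change of 0.32 (SE 0.23, 95% interval -0.23 to 0.87, edgeR adjusted p = 0.994) was not called. Without Piezo Gel+US replicate 2 it was 0.43 (95% interval -0.083 to 0.94), and leaving out any single library gave values from 0.21 to 0.43. Piezo Gel+US replicate 2, which had the highest summed level of Schwann cell genes (72629 CPM, against 4692 to 13578 CPM in the other libraries), had the lowest S100b level of its group. Relative to the mean of the other 5 libraries, it held 91.6% of S100b and 90.9% of Aldh1l1. For the rest of the 10 genes it held 11.7% (Slc1a2) to 54.3% (Sox9). The part of Schwann cells in the S100b level was not tested.

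Aldh1l1, a folate-metabolising dehydrogenase used as a pan-astrocyte marker, was the steadiest gene of the list. It measured 48.1, 45.0 and 46.8 CPM in Piezo Gel+US and 48.3, 43.5 and 60.6 CPM in Gel+US. The highest library held 1.39 times the level of the lowest, and the log2 fold change was -0.12 (95% interval -0.54 to 0.29, edgeR adjusted p = 0.994). Set against Aldh1l1 within each library and per base of gene length, S100b stood at 69.6, 55.5 and 66.3 times its level in Piezo Gel+US and at 50.4, 53.8 and 39.3 times in Gel+US. These ratios did not overlap between the groups (mean log2 difference 0.42, exact two-sided permutation p = 0.1, the smallest that free reassignment of 6 libraries allows, adjusted p = 0.6 over the 6 ratios, n = 3 each). Reassigned only within pairs of the same number, a test added after the values were seen, this ratio and that of Gjb6 to Gja1 each had an exact two-sided permutation p of 0.25, the smallest that 3 pairs allow (adjusted p = 0.75).

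Sox9, the transcription factor that starts gliogenesis and is also active in ependymal cells and cartilage, measured 32.5, 15.4 and 26.3 CPM in Piezo Gel+US and 31.8, 27.9 and 23.8 CPM in Gel+US. Apart from Piezo Gel+US replicate 2 its libraries were intermixed, and the log2 fold change of -0.17 (95% interval -0.88 to 0.54, edgeR adjusted p = 0.994) became 0.075 without that library. Ependymal genes, whose cells also use Sox9, had fitted fold changes below 0 in 11 of 11 tested, against 52.9% of all genes, with 0 called. So did 12 of 12 neuron genes and 11 of 11 microglia and macrophage genes. Without Piezo Gel+US replicate 2 the lower genes were 10 of 11 ependymal, 10 of 12 neuron and 5 of 11 microglia and macrophage. The part of ependymal cells in the Sox9 level was not tested. Glul measured 2413, 951 and 2641 CPM in Piezo Gel+US and 2313, 1782 and 2175 CPM in Gel+US. Aldoc, a glycolytic aldolase of brain and astrocytes, measured 1628, 573 and 2008 CPM in Piezo Gel+US and 1580, 1127 and 1902 CPM in Gel+US. For both enzymes Piezo Gel+US replicates 1 and 3 were above their Gel+US counterparts and replicate 2 was far below. Their log2 fold changes were -0.063 (95% interval -1.05 to 0.93, edgeR adjusted p = 0.996) for Glul and -0.13 (95% interval -1.29 to 1.02, edgeR adjusted p = 0.994) for Aldoc, and 0.27 and 0.24 without Piezo Gel+US replicate 2.

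**Figure D2:**
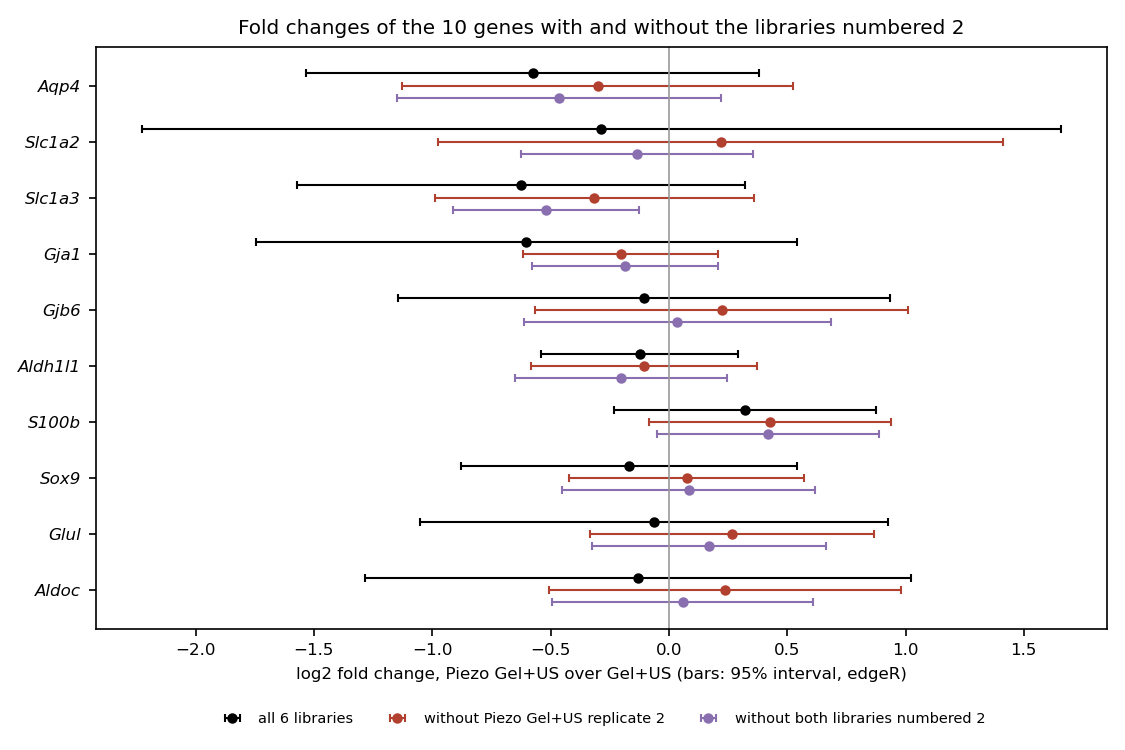
Log2 fold change of each gene, Piezo Gel+US over Gel+US, with its 95% interval from edgeR, for all 6 libraries (black), without Piezo Gel+US replicate 2 (red) and without both libraries numbered 2 (purple). Slc1a2, Gjb6, Sox9, Glul and Aldoc change sign without Piezo Gel+US replicate 2, while Aqp4, Slc1a3, Gja1 and Aldh1l1 stay below 0 and S100b above it in these 3 fits.

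Per kilobase of gene length, the levels ordered the genes in much the same way in both groups. In Piezo Gel+US the means were 909 CPM per kb for S100b, 862 for Aldoc and 726 for Glul, then 147 for Aqp4, 132 for Slc1a2 and 88.0 for Gja1, and 38.0 for Slc1a3, 31.7 for Gjb6, 14.2 for Aldh1l1 and 9.08 for Sox9. In Gel+US they were 944 CPM per kb for Aldoc, 758 for Glul and 728 for S100b, then 219 for Aqp4, 161 for Slc1a2 and 134 for Gja1, and 58.7 for Slc1a3, 34.1 for Gjb6, 15.5 for Aldh1l1 and 10.2 for Sox9. In Gel+US the library ranges of Aldoc, Glul and S100b overlapped, as did those of Aqp4 with Slc1a2, Slc1a2 with Gja1 and Slc1a3 with Gjb6, while those of Gjb6, Aldh1l1 and Sox9 were separate. Slc1a2 lay above Slc1a3 in level per kb in each of the 6 libraries, by the smallest margin in Piezo Gel+US replicate 2, with 20.1 and 19.4 CPM per kb.

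The genes shared a profile over the libraries more than a difference between the groups. Of the 10 genes 8 had their lowest level in Piezo Gel+US replicate 2, as did 28.4% of all genes tested. Relative to the mean of the other 5 libraries, that library held 11.7% of Slc1a2, 24.3% of Gja1 and 34.7% to 42.0% of Aldoc, Slc1a3, Aqp4, Gjb6 and Glul. It held 54.3% of Sox9, and 90.9% of Aldh1l1 and 91.6% of S100b. Within Gel+US, 8 of the 10 were lower in replicate 2 than the mean of replicates 1 and 3, from 34.4% for Slc1a2 to 97.1% for S100b, and the exceptions were Gja1 at 103% and Sox9 at 101%. The SD of log2 CPM over the 6 libraries ran from 0.17 for Aldh1l1 to 1.36 for Slc1a2. It was above 0.27, the median of the 7205 genes at least as abundant as Sox9, for 8 of the 10.

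The median profile of the 10 genes, each centred on its own mean log2 CPM, was 0.28, -1.03 and 0.26 in Piezo Gel+US replicates 1 to 3 and 0.28, -0.15 and 0.44 in Gel+US. Among the members Glul and Aldoc stayed closest to it, with root-mean-square differences of 0.14 and 0.16 log2 units over the 6 libraries, and Slc1a2 and S100b were the furthest at 0.75 and 0.48. Of 11413 other genes with a mean log2 CPM of at least 3, the 5 nearest were Camk2g, a calcium and calmodulin-dependent kinase (0.026), Tulp4 (0.043), Asah2, a neutral ceramidase (0.044), Mlc1, a membrane protein of astrocyte endfeet (0.050), and Atp11a, a phospholipid flippase (0.068).

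**Figure D3:**
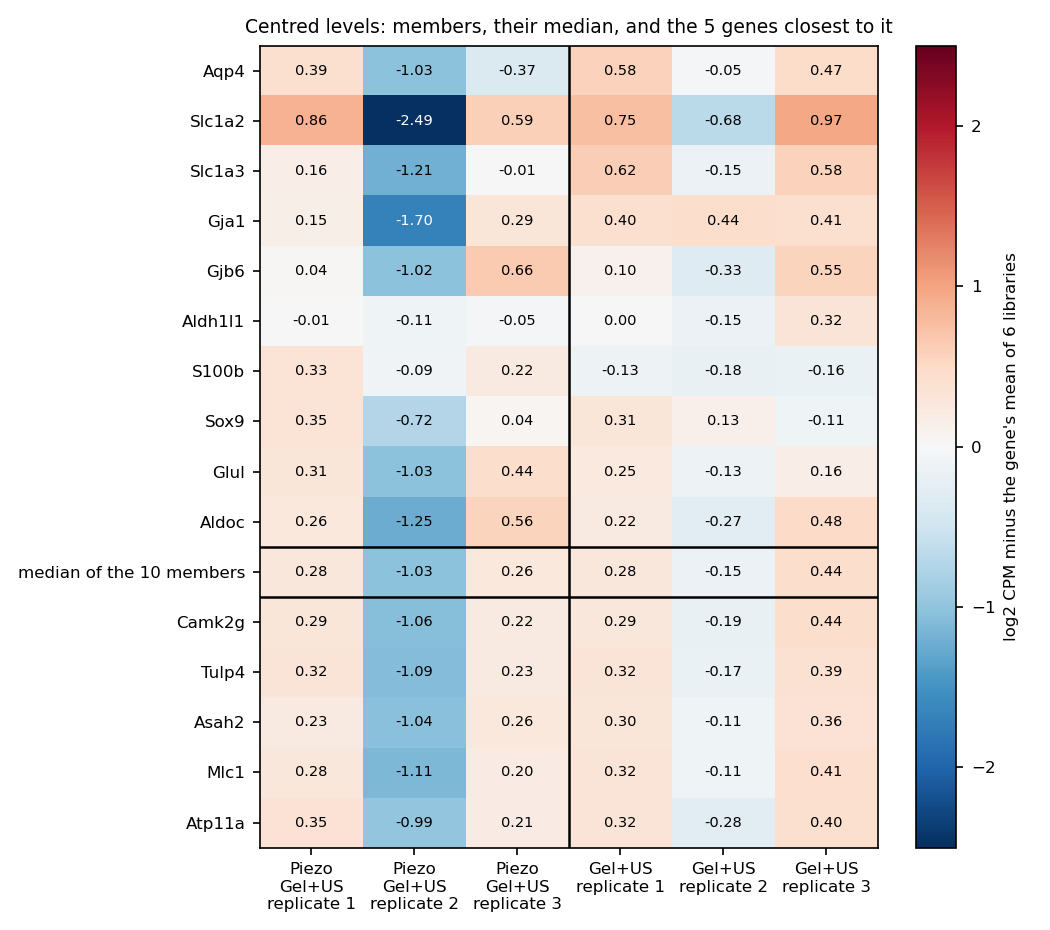
Log2 CPM minus the mean of 6 libraries for the 10 members, their median and the 5 other genes closest to that median, with libraries in columns. The Piezo Gel+US replicate 2 column holds the lowest value of 8 members, down to -2.49 for Slc1a2, while Aldh1l1 and S100b stay at -0.11 and -0.091.

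Marker lists of other cells differed between the same libraries. The summed level of 11 Schwann cell genes was 7663, 72629 and 13578 CPM in Piezo Gel+US and 4692, 7821 and 7358 CPM in Gel+US, and 10 of its 11 tested genes were highest in Piezo Gel+US replicate 2. Neuron genes (12) summed to 7728, 1972 and 4113 CPM in Piezo Gel+US and 6749, 2450 and 15249 CPM in Gel+US, and oligodendrocyte genes (11) to 21721, 10408 and 17885 CPM in Piezo Gel+US and 18794, 11170 and 21290 CPM in Gel+US. Both lists, like the sum of Aqp4, Slc1a2 and Slc1a3, were lowest within each group in the library numbered 2. Fibroblast genes (12) ran the other way, with 1580, 6669 and 2011 CPM in Piezo Gel+US and 1467, 8319 and 950 CPM in Gel+US. Microglia and macrophage genes (11) summed to between 359 and 1266 CPM in Piezo Gel+US and between 753 and 1360 CPM in Gel+US, and endothelial genes (9) to between 748 and 1219 CPM in Piezo Gel+US and between 657 and 1120 CPM in Gel+US. Ependymal genes (12) summed to between 52.4 and 109 CPM in Piezo Gel+US and between 105 and 136 CPM in Gel+US. Skeletal muscle genes (8) summed to between 8.33 and 117 CPM in Piezo Gel+US and between 4.71 and 25.3 CPM in Gel+US, with Ckm at 0 in 1 library, Tnni2 in 2 and Mb in 5. Tmem212 and Spag17 of the ependymal list were each at 0 in 1 library, and no marker of the other cell types was at 0 in any library. The part of these cell types in the levels of the 10 genes was not tested.

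**Figure D4:**
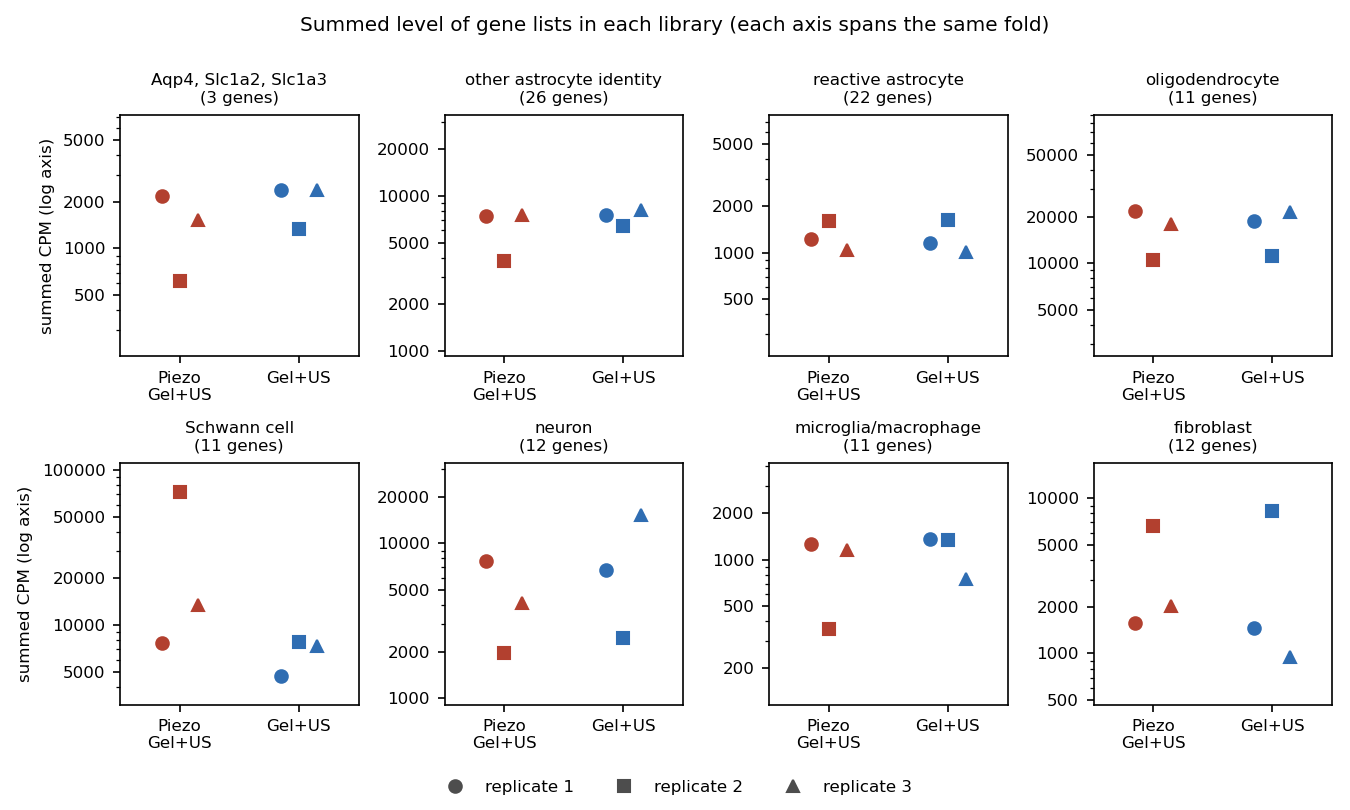
Summed CPM of marker lists in each library on log axes that each span the same fold, with Piezo Gel+US in red, Gel+US in blue and symbols for the replicate number. The squares, replicate 2, are low for the astrocyte transporters, neurons and oligodendrocytes and high for fibroblasts, and the red square is high for Schwann cell genes.

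Other genes of the glutamate route lay lower more often than higher, and 0 of 17 tested were called. In this list 14 had a log2 fold change below 0 and 3 above (median -0.29). Slc38a2, a transporter that brings glutamine into neurons and other cells, measured 289, 218 and 249 CPM in Piezo Gel+US and 363, 441 and 456 CPM in Gel+US (log2 fold change -0.74, 95% interval -1.22 to -0.25, edgeR adjusted p = 0.994). Slc7a11, the cystine and glutamate exchanger, had a log2 fold change of -0.99 (95% interval -1.61 to -0.36, edgeR adjusted p = 0.994). Both had groups that did not overlap, as 2.73% of all genes did in this direction. The list had 13 lower and 4 higher without Piezo Gel+US replicate 2 (median -0.12).

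Other astrocyte transporters and ion channels, among them the potassium channel Kcnj10, had 12 lower and 4 higher of 16 tested (median -0.23), and 0 called. The count was 3 lower and 13 higher without Piezo Gel+US replicate 2 (median 0.092). The genes of lowest p were both higher. Clcn2, a chloride channel of glia, measured 114, 190 and 150 CPM in Piezo Gel+US and 90.3, 91.6 and 81.8 CPM in Gel+US (log2 fold change 0.78, 95% interval 0.26 to 1.30, edgeR adjusted p = 0.994), and its log2 fold change was 0.58 without that library. Hepacam, the adhesion protein that holds Mlc1 and Clcn2 at astrocyte junctions, measured 188, 195 and 198 CPM in Piezo Gel+US and 169, 130 and 187 CPM in Gel+US (log2 fold change 0.26, 95% interval -0.19 to 0.71, edgeR adjusted p = 0.994).

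Genes that anchor Aqp4 at endfeet lay on both sides of 0. In the list of other aquaporins and anchor proteins 5 of 9 tested were higher and 4 lower (median 0.20), with 0 called. Dag1, dystroglycan, measured 462, 1559 and 526 CPM in Piezo Gel+US and 349, 516 and 408 CPM in Gel+US (log2 fold change 1.00, 95% interval -0.20 to 2.20, edgeR adjusted p = 0.994). Leaving out Piezo Gel+US replicate 2 gave 6 higher and 3 lower (median 0.085), and a Dag1 log2 fold change of 0.21 (95% interval -0.38 to 0.80). Dystroglycan is also a part of the Schwann cell surface. Aqp3, Aqp5 and Aqp7 had 0 counts in 3, 2 and 4 libraries and at most 0.704 CPM.

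Other connexins and pannexins had 4 higher and 5 lower of 9 tested (median -0.060), and 5 higher and 4 lower without Piezo Gel+US replicate 2 (median 0.10). Named by lowest p were Gjb1, a connexin of myelinating cells, at a log2 fold change of 0.54 (95% interval -0.073 to 1.16; 0.36 without that library), and Panx1 at -0.50 (95% interval -1.16 to 0.17). Factors of astrocyte specification had 7 higher and 6 lower of 13 (median 0.013), and 6 higher and 7 lower without it (median -0.038). Here Hes5 was at -0.88 (95% interval -1.96 to 0.19) and Id4 at -0.36 (95% interval -0.82 to 0.097). Nfia, the factor that works with Sox9 in early gliogenesis, measured 106, 94.7 and 104 CPM in Piezo Gel+US and 103, 90.8 and 108 CPM in Gel+US, and was chosen for mention after its values were seen. None of these genes was called (edgeR adjusted p = 0.994 for Gjb1, Panx1, Hes5 and Id4).

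Other astrocyte identity genes were more often lower than higher. Of 26 tested, 20 were lower and 6 higher (median -0.18), 0 were called, and 21 had their lowest level in Piezo Gel+US replicate 2. Without that library 9 were lower and 17 higher (median 0.098). Mertk, a phagocytic receptor that microglia and macrophages also carry, measured 63.0, 108 and 85.3 CPM in Piezo Gel+US and 55.5, 55.4 and 60.1 CPM in Gel+US (log2 fold change 0.58, 95% interval 0.061 to 1.10, edgeR adjusted p = 0.994), and its log2 fold change was 0.37 without Piezo Gel+US replicate 2. Gldc, the glycine cleavage enzyme, had a log2 fold change of 0.98 (95% interval -0.11 to 2.06, edgeR adjusted p = 0.994), and 0.36 without that library.

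Reactive astrocyte genes include those that scar-forming astrocytes raise after injury. Of 22 tested, 15 were lower and 7 higher (median -0.11) and 0 were called, while 5 had their lowest and 6 their highest level in Piezo Gel+US replicate 2. Their summed level was 1221, 1604 and 1034 CPM in Piezo Gel+US and 1150, 1625 and 1014 CPM in Gel+US, so the libraries numbered 2 were the highest of each group. Fibroblast genes were also highest within each group in these libraries, at 6669 and 8319 CPM. The part of cells other than astrocytes in the reactive sum was not tested. Nes, an intermediate filament of progenitors, reactive astrocytes and Schwann cells, measured 103, 469 and 117 CPM in Piezo Gel+US and 63.8, 102 and 83.3 CPM in Gel+US (log2 fold change 1.47, 95% interval 0.0030 to 2.93, edgeR adjusted p = 0.994). B3gnt5, a glycosyltransferase, measured 7.58, 36.3 and 4.35 CPM in Piezo Gel+US and 1.85, 8.0 and 2.61 CPM in Gel+US (log2 fold change 1.96, 95% interval -0.27 to 4.18, edgeR adjusted p = 0.994). Leaving out Piezo Gel+US replicate 2, which held the highest level of both, gave log2 fold changes of 0.40 for Nes (95% interval -0.19 to 0.98) and 0.51 for B3gnt5 (95% interval -1.20 to 2.22), and 6 genes of the list higher and 16 lower (median -0.16). Gfap and Vim were among the symbols not matched in the count table and were not analysed here. The gene IDs and positions of that table are not those of GRCr8 RefSeq, and an unmatched symbol tells nothing of the RNA level.

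**Figure D5:**
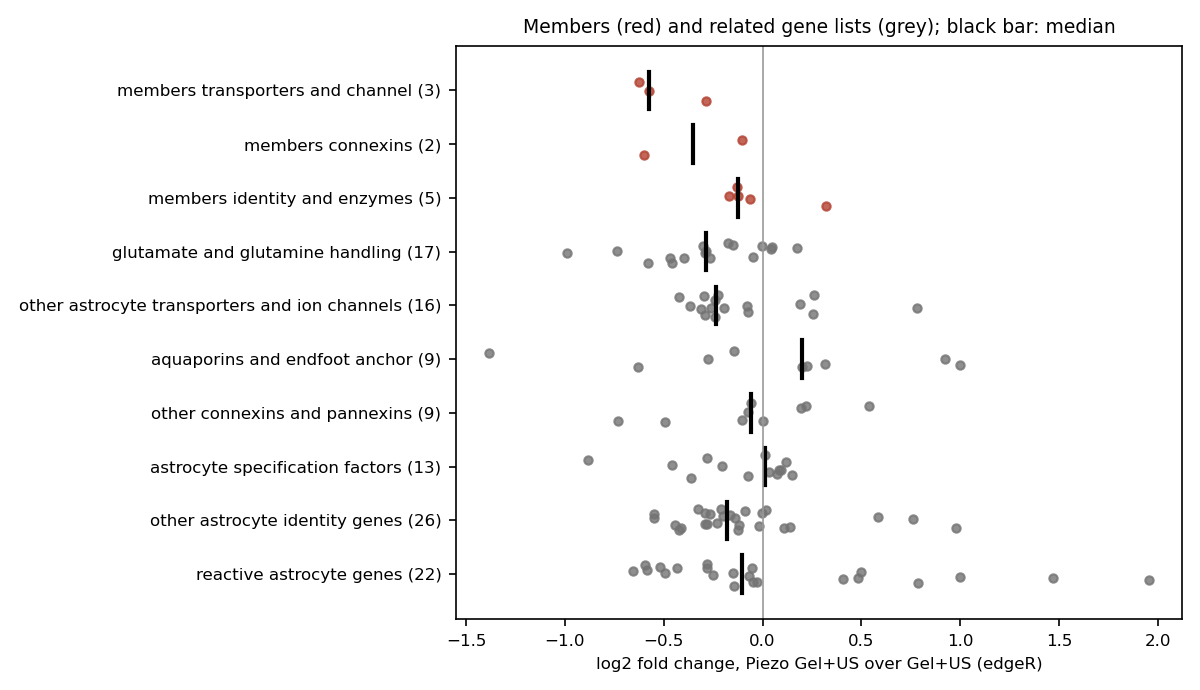
Log2 fold change, Piezo Gel+US over Gel+US, of each member (red) and of the tested genes of related lists (grey), with the list median as a black bar and the number of genes tested in brackets. The members run from -0.63 to 0.32, and list medians from -0.29 for glutamate handling to 0.20 for aquaporins and endfoot anchors among the grey lists.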

How the data were processed

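Poly(A) RNA was sequenced as 6 strand-specific libraries, per the labels' protocols, and libraries were grouped by their treatment label and matched to columns by library name. The authors deposited raw counts per gene, whole numbers with no normalization, and a gene length. The submitters' processing notes list DESeq2 1.20.0, featureCounts 1.5.0-p3, fastp 0.19.7 and HISAT2 2.0.5 but not their roles. The genome build and use of strand in counting are not given in the sources used here, so reads of overlapping genes could be shared. Of the table's 33455 gene IDs 0 are in the GRCr8 RefSeq table, so the promoter windows, matched by symbol, come from a different annotation than the counts. Gene positions in the count table differ from GRCr8 as well. Slc1a3 is listed there at 171794220 to 171868023 on the plus strand, while its GRCr8 window is at chr2:59557759-59558058 on the minus strand. Symbols in the table decided membership, and 0 of its per-sample columns were left out.

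All 17066 genes that passed filterByExpr (minimum count 10, minimum total 15) were fitted in edgeR 4.0.16 (R 4.3.3) with TMM factors and group as the only term, by the robust quasi-likelihood F test with Benjamini-Hochberg adjustment, called at 0.05. Mean ± SD is over 3 libraries, and log2 CPM used a prior count of 2. DESeq2 1.42.0, limma 3.58.1 voom weights, other scalings, no filter, a replicate block and left-out libraries were alternatives. Of 220 list entries beside the members, 203 were matched by symbol. The members and lists were chosen with earlier results of these data known. From each pathway list the 2 genes of lowest p with mean log2 CPM of at least 0 were named, and the 5 genes nearest the members' median profile; 1 such gene is not reported here.

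Labels call the libraries biological replicates. Deviations from the group means correlated at 0.253, 0.296 and 0.251 between libraries numbered 1, 2 and 3. Between libraries of unlike number the correlations ran from -0.342 to 0.198. By the preset rule this marks the numbers as pairing the libraries. That is a reading from the data and does not establish pairing. Deviations of 3 libraries from their own mean are not independent, and no label says that a number marks a shared litter or day.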

Additional observations from a re-analysis of the deposited data

How the results depend on the processing

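With 1 library left out, the median log2 fold change of the 10 genes ran from -0.49 to 0.15, and was above 0 only without Piezo Gel+US replicate 2. The range was -0.77 to 0.22 for Slc1a2, -0.55 to 0.22 for Gjb6, -0.23 to 0.014 for Aldh1l1, -0.43 to 0.075 for Sox9, -0.31 to 0.27 for Glul and -0.48 to 0.24 for Aldoc. Aqp4 (-1.03 to -0.30), Slc1a3 (-0.89 to -0.32), Gja1 (-0.92 to -0.20) and S100b (0.21 to 0.43) kept their sign. Without Gel+US replicate 3, 5 genes were lower and 5 higher. The fit without both libraries numbered 2, chosen after seeing the data, gave 0.035 for Gjb6, 0.084 for Sox9, 0.17 for Glul and 0.059 for Aldoc, and 5 genes lower and 5 higher. In limma-voom with quality weights Gjb6 was at 0.25, Glul at 0.093 and Aldoc at 0.16. There 3 of the 10 genes had an unadjusted p below 0.05, as did 14.0% of all genes (2390). Its weights were 7.74, 0.42 and 0.44 for Gel+US replicates 1 to 3, so the Gel+US side rested mostly on replicate 1. For Piezo Gel+US replicates 1 to 3 they were 1.39, 0.21 and 2.41. The cause of these changes of sign was not tested.

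Every setting called 0 of the 10 genes and 0 genes in all. With the replicate block, which takes libraries of the same number as pairs, 2 of the 10 (Aqp4 and Slc1a3) and 986 genes had an unadjusted p below 0.05. Without it these were 0 and 359, and DESeq2 had 652 genes. With 1 library left out that count of genes ran from 141 to 775. Aqp4 was below 0.05 without Piezo Gel+US replicate 1, as were 3.83% of all genes in that fit. The block changed no call. With DESeq2, the other scalings, no filter or the block, 9 genes were lower and 1 higher.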
